A study of Homo sapiens with 12 samples.

Results

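The genes described here carry the defence against ferroptosis that runs from cystine import through glutathione to the peroxidase GPX4, together with a pair of enzymes that feed parallel arms of the same defence. Members were taken from a list of gene symbols: SLC7A11, SLC3A2, GCLC, GCLM, GSS, GSR, GPX4, AIFM2 and GCH1. Each matched 1 row of the count table, so 9 of the 70116 listed genes are members, and all 9 passed the filter on low counts. RNA came from MiaPaCa-2 cells, a long-established line grown from a human pancreatic carcinoma, that received small interfering RNA (siRNA), which makes the cell destroy the transcript it pairs with. The 4 groups, each with 3 libraries and distinguished only by the siRNA, were siControl, siSLC25A1, siACLY and siACO1. SLC25A1 is the mitochondrial citrate exporter, ACLY makes acetyl-CoA from citrate in the cytosol, and ACO1 is the cytosolic aconitase that can also act as an iron-regulatory RNA-binding protein. The series title asks about citrate transport and ferroptosis under nutrient stress. The labels name no nutrient condition, no harvest time and no number of siRNAs per target, so an effect of a target and an off-target effect of its siRNA cannot be told apart.

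In ferroptosis, cells die when iron catalyses the peroxidation of their membrane lipids faster than it is repaired. Cells import cystine in exchange for glutamate, reduce it to cysteine and build the tripeptide glutathione, which the selenoenzyme GPX4 uses to turn lipid hydroperoxides into harmless alcohols. A parallel arm regenerates the reduced form of coenzyme Q at membranes through AIFM2, also known as FSP1, and a further one relies on tetrahydrobiopterin, whose synthesis starts with GCH1. Pancreatic cancer cells are known to depend on imported cystine.

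The promoters of the members were searched for the core of the antioxidant response element, TGACNNNGC, through which the transcription factor NRF2 acts, and for the site TGATGNAA, bound by ATF4 with C/EBP partners. The 250 bases before each start site were searched, in promoter sequences from RefSeq (build GRCh38.p14). These were at hand for 5 of the members, namely GCLM, GCLC, AIFM2, SLC3A2 and GPX4. The antioxidant core was found on either strand before a start of GCLM, AIFM2 and SLC3A2, which are printed here because they hold the only matches among the members. The 5 members had 9 windows, as some have more than 1 start site, and each of the 3 genes held the core in 1 window. Of the 35116 promoter windows in the table, 10.9% hold the core. TGATGNAA, which 3.1% of windows hold, was in none of the members' windows. Each line gives 30 bases of the gene's own strand, 5′ to 3′, with the match in capitals.
GCLM, chr1:93909445-93909474, minus strand: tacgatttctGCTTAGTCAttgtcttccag
AIFM2, chr10:70132828-70132857, minus strand: cagcacgagtGCTGAGTCAcgccccgcccg
SLC3A2, chr11:62881652-62881681, plus strand: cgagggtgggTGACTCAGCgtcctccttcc
The matches lay at positions -34 to -26, -22 to -14 and -37 to -29 from the respective start. In GENCODE release 29 the matches of AIFM2 and SLC3A2 overlapped an exon of the same gene, and that of GCLM touched only the outermost base of the gene. Those of AIFM2 and SLC3A2 also contain TGACTCA, the AP-1 site bound by FOS and JUN proteins, which 4.2% of windows hold. A match describes these letters and does not show binding. As log2 fold changes against siControl, GCLM was at 0.15 in siSLC25A1 and 0.20 in siACLY, and AIFM2 at 0.13 and 0.18. The AIFM2 value in siSLC25A1 did not pass the threshold given below. SLC3A2 fell in siACO1 (-0.49), and its fall in siACLY (-0.12) was lost when any 1 library of either group was left out. A part of the matches in these changes was not tested.

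Library totals ran from 24159424 to 43792811 counts. The targeted transcripts checked the labels: SLC25A1 was at 8.78% of its control level in siSLC25A1, ACLY at 7.25% in siACLY and ACO1 at 3.75% in siACO1. Of the epithelial markers, KRT8, KRT18 and KRT19 were abundant, while EPCAM, CDH1 and KRT7 were below 1 CPM in every library. The summed epithelial markers were at 2067 to 2181 CPM in siACO1 against 3607 to 3745 in siControl, 3125 to 3453 in siSLC25A1 and 3824 to 3923 in siACLY. KRT8 and KRT18 made up most of the sum, and KRT19 did not follow them in siSLC25A1. Its mean there was 121 CPM against 88.5 in siControl, while KRT8 was at 2011 against 2278 and KRT18 at 1151 against 1325. In siACLY KRT19 was at 141 CPM and KRT18 at 1315. The mesenchymal markers VIM and ZEB1 summed to 3568 to 3716 CPM in siControl, 3918 to 3989 in siSLC25A1, 4372 to 4909 in siACLY and 3535 to 3900 in siACO1. The part of these differences in the results was not tested. Markers of leukocytes, fibroblasts, endothelium and normal pancreas were below 1 CPM throughout. The library siACO1 replicate 3 stood apart: its counts differed from those of its replicates with a chi-square per degree of freedom of 11.83 and 12.52, where other replicate pairs gave 2.31 to 5.85. The labels do not say whether replicates were separate cultures, so the p-values measure the spread between these libraries, which may be technical.

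Levels are CPM, counts relative to the library total after adjustment with edgeR's TMM factors. All adjusted p-values are from edgeR's quasi-likelihood test with Benjamini-Hochberg adjustment over 16197 tested genes, and a gene is called to have changed at an adjusted p under 0.05. In siControl, levels per kilobase of exon differed widely among the members. The length counts all annotated exons of a gene, merged over its transcripts, and the SD does not cover this choice. GPX4 was highest at 139 ± 2.50 CPM per kilobase (SD, n = 3), before SLC3A2 at 77.3 ± 2.06 and GCLM at 71.7 ± 1.90. GSR (22.5 ± 0.783) and GSS (21.7 ± 0.425) lay within their spread of each other. AIFM2 followed at 10.7 ± 0.434 and SLC7A11 at 5.23 ± 0.159. GCLC, at 3.32 ± 0.0925, and GCH1, at 1.29 ± 0.0997 CPM per kilobase, were the lowest.

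The called members differed among the 3 knockdowns, with a part in common. Every member called in siSLC25A1 was also called in siACLY, in the same direction. Compared directly, 6 members differed between siSLC25A1 and siACLY. In siSLC25A1 5 of 9 members were called, 3 higher (SLC7A11, GCLM, GCH1) and 2 lower (GSR, GPX4), where 19.6% of all tested genes were called, 10.3% higher and 9.27% lower. In siACLY 8 of 9 were called, 5 higher (SLC7A11, GCLM, GSS, AIFM2, GCH1) and 3 lower (SLC3A2, GSR, GPX4), where the shares of all genes were 36.7%, 18.4% higher and 18.3% lower. In siACO1 5 of 9 were called, GCH1 higher and SLC7A11, SLC3A2, GCLC and GSR lower, where 37.1% of all genes were called, 17.8% higher and 19.3% lower. Leaving out siControl replicate 1 or 3, or siSLC25A1 replicate 2 or 3, left 3 called members in siSLC25A1, those that were higher. With any 1 library of either group left out, 6 to 7 members were called in siACLY, and SLC3A2 was never among them. The count in siACO1 was also 5 without replicate 3, and it was 8 with library totals in place of TMM, where GSS, GPX4 and AIFM2 were called higher as well. The members were more abundant than most genes, with a median of 71.8 CPM against 13.8 over all tested genes. Among the 9338 tested genes at or above the level of the lowest member, 7.26 CPM, the called shares were 28.7% in siSLC25A1, 48.2% in siACLY and 49.7% in siACO1. As a median of absolute log2 fold changes, the members and all genes stood at 0.15 and 0.15 in siSLC25A1, 0.20 and 0.20 in siACLY, and 0.26 and 0.21 in siACO1. For these sizes all tested genes were taken, not only those at or above 7.26 CPM, so the sets differ in abundance. The 3 comparisons share the siControl libraries. In bulk RNA, fewer cells in a given state and less RNA per cell cannot be told apart.

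**Figure D1:**
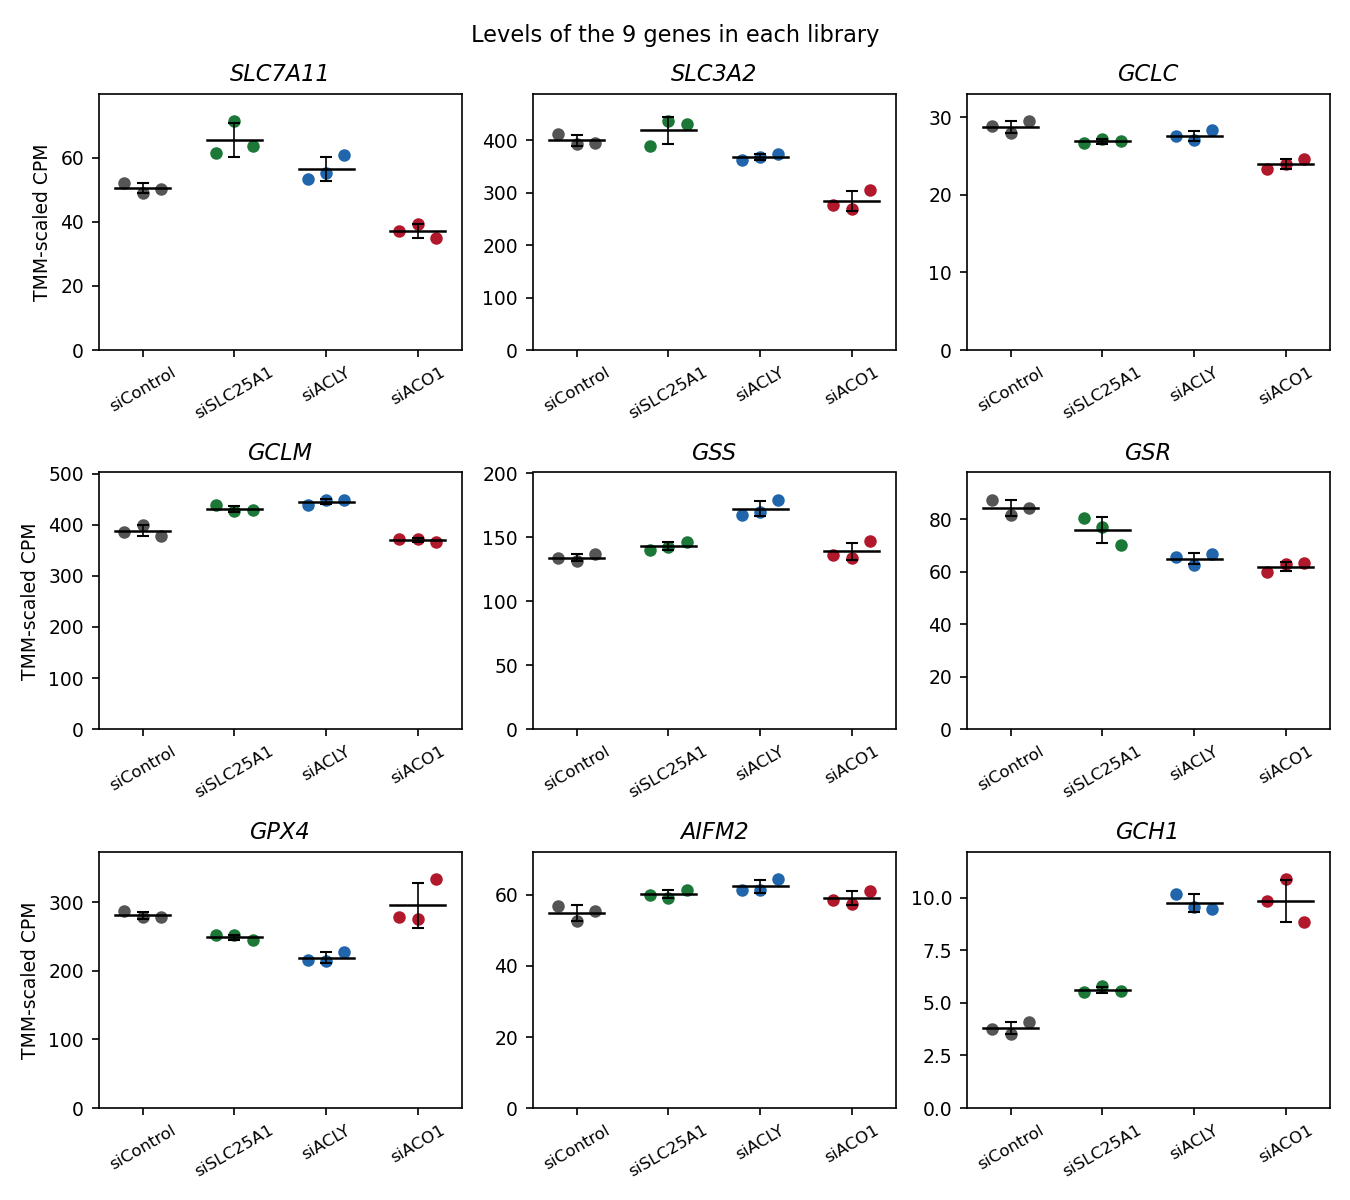
TMM-scaled CPM of the 9 genes (y axis, from 0) in each of the 12 libraries (points) of the 4 groups, with the mean (black bar) and SD (whisker) over 3 libraries. SLC7A11 is highest in siSLC25A1 and lowest in siACO1, GPX4 is lowest in siACLY, and GCH1 stands near 9.75 CPM in siACLY and 9.86 in siACO1 against 3.80 in siControl.

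Cystine import is the first step. SLC7A11 is the transporting light chain of the cystine-glutamate exchanger, and SLC3A2 is the heavy chain that carries it to the cell surface. SLC7A11 (ENSG00000151012.13, chromosome 4, 138164097 to 138242349, minus strand; members' positions are gene spans in GENCODE 29 on GRCh38) was at 52.0, 49.0 and 50.2 CPM in siControl, at 61.4, 71.4 and 63.7 in siSLC25A1, at 53.3, 55.3 and 60.7 in siACLY and at 37.1, 39.3 and 35.0 in siACO1. All libraries of siSLC25A1 and siACLY lay above all controls and all of siACO1 lay below them. The log2 fold change against siControl was 0.38 in siSLC25A1 (SE 0.06, adjusted p 2.5e-05), 0.16 in siACLY (SE 0.06, adjusted p 0.0362) and -0.44 in siACO1 (SE 0.06, adjusted p 1.33e-06). The rise in siACLY did not hold in the DESeq2 Wald test (adjusted p 0.0573), and it was lost without siControl replicate 2 or 3 or siACLY replicate 2 or 3, with log2 fold changes of 0.10 to 0.17 and adjusted p-values of 0.0637 to 0.250. SLC7A11-AS1, on the opposite strand, overlaps 9.0% of the exon bases of SLC7A11, and whether the counting used strand is not given in the sources used here.

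SLC3A2 (ENSG00000168003.19, chromosome 11, 62856102 to 62888875, plus strand) fell most in siACO1. It was at 412, 393 and 395 CPM in siControl and at 277, 270 and 306 in siACO1, with no overlap (log2 fold change -0.49, SE 0.05, adjusted p 1.2e-09). Without siACO1 replicate 3, its highest library, the fall was -0.55. In siSLC25A1 the libraries spread over 390, 437 and 431 CPM across the control range, with a difference of 0.07 (95% interval -0.03 to 0.16, adjusted p 0.347). In siACLY they were at 363, 369 and 374 CPM, all below the controls (log2 fold change -0.12, adjusted p 0.0432). That small fall was no longer called when any 1 library of either group was left out (adjusted p 0.0578 to 0.169), with library totals (-0.08, adjusted p 0.178) or with at least 10 counts in every library (adjusted p 0.0688).

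Glutathione is made in a pair of steps. Glutamate-cysteine ligase, the rate-limiting enzyme, joins glutamate to cysteine with its catalytic subunit GCLC, and the modifier subunit GCLM raises its activity; GSS then adds glycine. GCLM (ENSG00000023909.10, chromosome 1, 93885205 to 93909456, minus strand) was at 387, 399 and 379 CPM in siControl, at 439, 427 and 430 in siSLC25A1, at 440, 449 and 448 in siACLY and at 373, 373 and 366 in siACO1. It rose in siSLC25A1 (log2 fold change 0.15, SE 0.04, adjusted p 0.00309) and in siACLY (0.20, SE 0.04, adjusted p 8.99e-05). In siACO1 all libraries lay just under the controls, and the difference of -0.07 was not called (95% interval -0.14 to 0.01, adjusted p 0.153).

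The catalytic subunit did not rise with the modifier in siSLC25A1 or siACLY, and in siACO1 both had values below the controls. GCLC (ENSG00000001084.13, chromosome 6, 53497341 to 53616970, minus strand) was at 28.8, 27.9 and 29.5 CPM in siControl, at 26.6, 27.2 and 26.9 in siSLC25A1, at 27.6, 27.0 and 28.3 in siACLY and at 23.3, 24.0 and 24.6 in siACO1. It was called in siACO1, where all libraries were below those of every other group (log2 fold change -0.26, SE 0.06, adjusted p 0.000928). The differences in siSLC25A1, whose libraries all lay below the controls (-0.09, 95% interval -0.22 to 0.03), and siACLY (-0.06, 95% interval -0.17 to 0.06) were not called.

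GSS, glutathione synthetase (ENSG00000100983.12, chromosome 20, 34928433 to 34956027, minus strand), rose in siACLY. Its libraries stood at 167, 170 and 179 CPM there and at 134, 131 and 137 in siControl, with no overlap (log2 fold change 0.36, SE 0.04, adjusted p 9.68e-08). The siSLC25A1 libraries, at 140, 142 and 146 CPM, all lay above the controls without passing the threshold (0.09, adjusted p 0.149). In siACO1 they were at 136, 134 and 147 CPM and overlapped the controls (0.06, adjusted p 0.339).

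GSR, the reductase that returns oxidised glutathione to its reduced form with NADPH (ENSG00000104687.14, chromosome 8, 30678061 to 30727999, minus strand), was lower in all 3 knockdowns. It was at 87.4, 81.5 and 84.4 CPM in siControl, at 80.4, 77.0 and 70.4 in siSLC25A1, at 65.5, 62.6 and 66.7 in siACLY and at 59.8, 62.9 and 63.2 in siACO1. No knockdown library reached the lowest control. The log2 fold change was -0.38 in siACLY (SE 0.05, adjusted p 6.47e-07) and -0.44 in siACO1 (SE 0.05, adjusted p 3.97e-08). In siSLC25A1 it was -0.15 (SE 0.05, adjusted p 0.0322), a call that was lost without siControl replicate 1 or 3 or siSLC25A1 replicate 2 or 3, with values of -0.16 to -0.10 and adjusted p-values of 0.0615 to 0.228.

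GPX4, the peroxidase at the end of the chain (ENSG00000167468.20, chromosome 19, 1103926 to 1106791, plus strand), fell most in siACLY. Its libraries were at 287, 278 and 279 CPM in siControl and at 216, 214 and 228 in siACLY, far below the controls (log2 fold change -0.36, SE 0.05, adjusted p 8.5e-06). In siSLC25A1 they stood at 252, 252 and 245 CPM, also below every control (-0.17, SE 0.05, adjusted p 0.0220). This smaller fall was not called without siControl replicate 1 or 3 or without any 1 of the siSLC25A1 libraries, where it was -0.18 to -0.16 with adjusted p-values of 0.0522 to 0.0916. In siACO1 replicates 1 and 2, at 279 and 275 CPM, lay at or just under the lower end of the control range, and replicate 3, at 334, lay above all other libraries. The log2 fold change there was 0.07 with all libraries (95% interval -0.03 to 0.18, adjusted p 0.292) and -0.02 without replicate 3 (adjusted p 0.643).

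**Figure D2:**
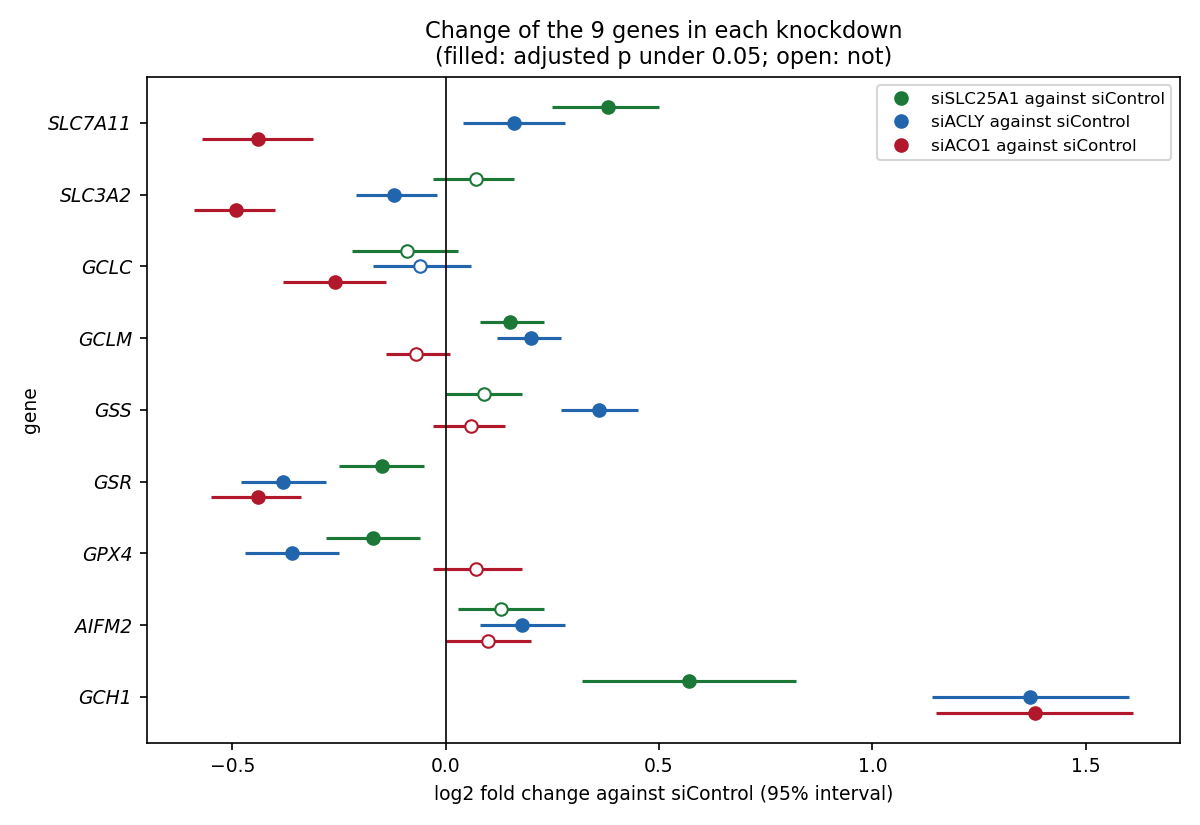
Log2 fold change of each gene against siControl (x axis) with its 95% interval (lines), by knockdown (colour); filled points passed an adjusted p under 0.05. GSR lies below 0 in all 3 knockdowns and GCH1 above 0 in all 3, while SLC7A11 is at 0.38 in siSLC25A1 and -0.44 in siACO1.

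The other 2 members belong to the arms that do not use glutathione. AIFM2 (ENSG00000042286.15, chromosome 10, 70098223 to 70132934, minus strand) encodes the oxidoreductase that regenerates reduced coenzyme Q, and its level moved least of the 9. It was at 57.0, 52.6 and 55.4 CPM in siControl, at 60.1, 59.2 and 61.5 in siSLC25A1, at 61.3, 61.4 and 64.5 in siACLY and at 58.5, 57.5 and 61.2 in siACO1. Every knockdown library lay above every control. The rise was called in siACLY alone (log2 fold change 0.18, SE 0.05, adjusted p 0.00392), and no difference of AIFM2 between 2 knockdowns was called (adjusted p 0.206 to 0.683). The value in siSLC25A1, 0.13 (adjusted p 0.0591), was called with library totals (adjusted p 0.0452), in a fit of these 2 groups (0.0362) and with the replicate block (0.0476). In siACO1 it was 0.10 (adjusted p 0.101).

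GCH1, which catalyses the rate-limiting step of tetrahydrobiopterin synthesis (ENSG00000131979.20, chromosome 14, 54842008 to 54902852, minus strand), showed the widest range of all members and was the least abundant. It was at 3.77, 3.52 and 4.11 CPM in siControl (115 to 135 counts), at 5.51, 5.80 and 5.55 in siSLC25A1, at 10.2, 9.58 and 9.45 in siACLY and at 9.86, 10.9 and 8.86 in siACO1. The siControl, siSLC25A1 and siACLY libraries formed 3 separate levels, and siACO1 overlapped siACLY. GCH1 was 1.48 times its control level in siSLC25A1 (log2 fold change 0.57, SE 0.12, adjusted p 0.00101), 2.58 times in siACLY (1.37, SE 0.11, adjusted p 8.98e-11) and 2.60 times in siACO1 (1.38, SE 0.11, adjusted p 6.79e-11). It was higher in 9 of 9 knockdown libraries, and over all alternatives its log2 fold change stayed between 0.52 and 0.62, 1.31 and 1.42, and 1.30 and 1.45 in the same order.

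The knockdowns were then compared with each other, which leaves out the controls. Between siSLC25A1 and siACO1 7 of 9 members differed, 5 higher in siSLC25A1 and 2 lower. Of all genes 42.1% were called, 21.8% higher and 20.3% lower, and of those at or above 7.26 CPM 55.4%. SLC7A11 was 1.76 times as high in siSLC25A1 as in siACO1 (log2 difference 0.82, SE 0.06, adjusted p 7.15e-12) and SLC3A2 1.48 times (0.56, SE 0.05, adjusted p 5.8e-11). GSR (0.29), GCLM (0.22) and GCLC (0.16) were also higher, and GPX4 (-0.25, or -0.15 without siACO1 replicate 3) and GCH1 (-0.81) were lower. The GCLC call, at an adjusted p of 0.0309, was lost with library totals (0.112), without a filter on genes (0.122), in a fit of the 2 groups (0.0675), and without siSLC25A1 replicate 2 or 3 or siACO1 replicate 1 or 2 (0.0577 to 0.0923).

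Between siACLY and siACO1 6 members differed, 5 higher in siACLY and 1 lower. The shares of all genes were 42.1%, 21.4% higher and 20.7% lower, and 55.1% of those at or above 7.26 CPM were called. SLC7A11 (log2 difference 0.60, adjusted p 3.86e-09), SLC3A2 (0.38), GSS (0.30), GCLM (0.27) and GCLC (0.20) were higher in siACLY. GPX4 was lower by -0.43 (adjusted p 3.63e-07), and by -0.34 without siACO1 replicate 3. GCH1 differed by -0.01, with a 95% interval of -0.22 to 0.20, and GSR by 0.07 (95% interval -0.04 to 0.17).

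Between siSLC25A1 and siACLY 6 members differed, 4 higher in siSLC25A1 and 2 lower. Of all genes 33.8% were called, 17.5% higher and 16.3% lower, and of those at or above 7.26 CPM 45.5%. GSR (0.23), SLC7A11 (0.22), GPX4 (0.19) and SLC3A2 (0.19) were higher in siSLC25A1, and GSS (-0.27) and GCH1 (-0.80, adjusted p 1.37e-06) were lower. The SLC7A11 difference was not called without siSLC25A1 replicate 2, its highest library (0.16, adjusted p 0.0583). By these tests GPX4 was ordered siACLY, siSLC25A1, then siControl and siACO1, whose difference was not called. SLC7A11 was ordered siACO1, siControl, siACLY, siSLC25A1. The steps from siControl to siSLC25A1 for GPX4 and from siControl to siACLY and siACLY to siSLC25A1 for SLC7A11 were each lost when certain single libraries were left out, as given with each value. GCH1 was ordered siControl, siSLC25A1, then siACLY and siACO1, which overlapped.

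Partner transcripts were also set against each other within each library, a ratio that does not depend on library scaling. Counts per exon base of SLC3A2 were 14.8 ± 0.158 times those of SLC7A11 in siControl (SD, n = 3), with 14.6 in the lowest library. The ratio was lower in every library of siSLC25A1 (11.8, 11.4 and 12.6) and siACLY (12.7, 12.4 and 11.5), and it ranged over 13.9, 12.8 and 16.3 in siACO1, where both partners fell. For GCLM to GCLC the ratio was 21.5, 22.8 and 20.5 in siControl, 26.3, 25.0 and 25.6 in siSLC25A1, 25.5, 26.6 and 25.2 in siACLY and 25.5, 24.8 and 23.7 in siACO1. All 9 knockdown libraries thus had more GCLM per GCLC than any control. With 3 libraries against 3 the two-sided exact permutation test cannot go below 0.100, which is the p of each of these differences except that of SLC3A2 to SLC7A11 in siACO1 (exact permutation p 0.700). The 6 comparisons cannot pass a correction. SLC3A2 also serves as heavy chain for other light chains.

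**Figure D3:**
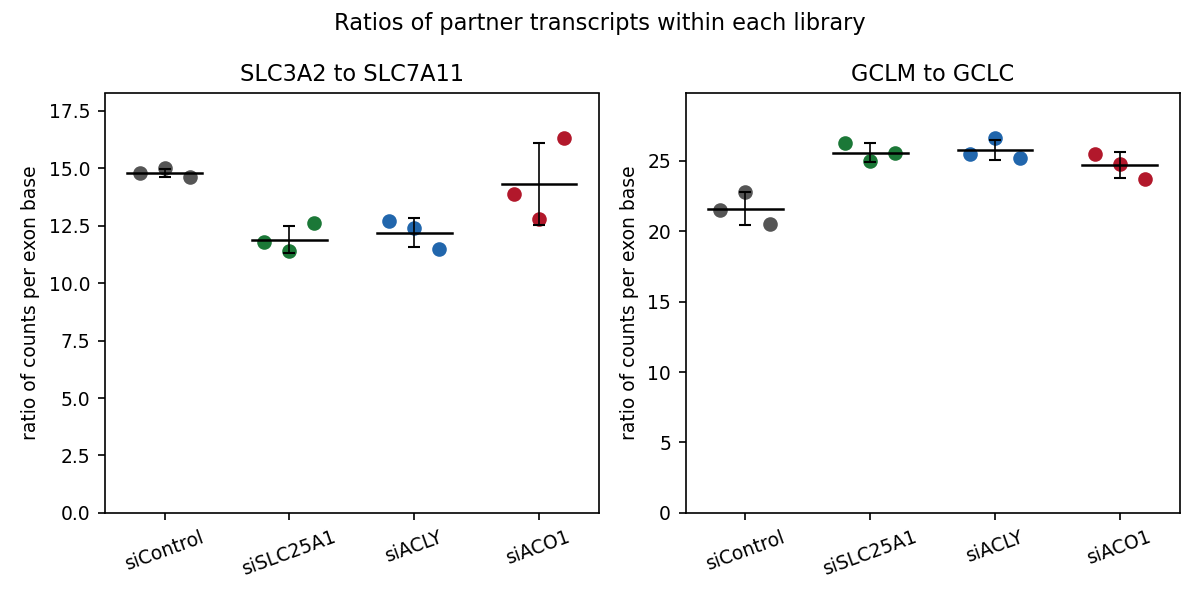
Ratio of counts per exon base (y axis, from 0) of SLC3A2 to SLC7A11 (left) and of GCLM to GCLC (right) in each library (points), with the mean (bar) and SD (whisker) of 3 libraries per group. The GCLM to GCLC ratio is 21.6 ± 1.18 in siControl and 24.7 to 25.8 in the means of the knockdowns.

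Around the members, 101 other genes of the pathway were listed in 7 groups, of which 92 passed the filter on low counts. In siSLC25A1 28 of the 92 were called (30.4%), 13 higher and 15 lower, where 19.6% of all tested genes and 28.7% of those at or above 7.26 CPM were called, with a median log2 fold change of -0.02 against 0.00 for all genes. The 92 genes were not held to that level in any of the knockdowns, and some lay below it. By group, the heavy chain partners of SLC3A2 had 0 of 3 called, cysteine handling and glutathione breakdown 5 higher and 2 lower of 17, and glutathione use and transport 3 higher and 6 lower of 26. Selenoprotein synthesis had 1 higher of 10, coenzyme Q synthesis and quinone reduction 2 higher and 4 lower of 20, tetrahydrobiopterin synthesis and recycling 2 lower of 6, and the transcriptional regulators 2 higher and 1 lower of 10. The largest rises were all in cysteine handling. SLC1A4, a neutral amino acid carrier, went from 43.9 ± 1.99 to 65.8 ± 7.97 CPM (SD, n = 3; log2 fold change 0.58, adjusted p 4.98e-07), and CTH, which releases cysteine from cystathionine, from 47.8 ± 3.80 to 67.2 ± 7.49 (0.49). TXNRD1, the thioredoxin reductase that supports cystine reduction, rose by 0.46, and CHAC1, which degrades glutathione, by 0.42. The largest falls were those of GSTM2, a glutathione transferase at 2.48 CPM in siControl (-1.06), COQ8B of coenzyme Q synthesis (-0.56), MAFK, a small MAF partner of NRF2 (-0.41), and SPR, the last enzyme of tetrahydrobiopterin synthesis (-0.40). SEPHS2, which makes the selenium donor for selenoproteins such as GPX4, rose by 0.22 and was the 1 selenoprotein synthesis gene called.

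In siACLY 46 of the 92 were called (50.0%), 23 higher and 23 lower, with a median of 0.00 against 0.01, where 36.7% of all genes and 48.2% of those at or above 7.26 CPM were called. With library totals 51 were called, 32 higher and 19 lower. The heavy chain partners had 2 lower of 3, cysteine handling and glutathione breakdown 6 higher and 2 lower of 17, and glutathione use and transport 4 higher and 6 lower of 26. Selenoprotein synthesis had 4 higher and 2 lower of 10, coenzyme Q 3 higher and 6 lower of 20, tetrahydrobiopterin 1 higher and 3 lower of 6, and the regulators 5 higher and 2 lower of 10. GGT7, of the gamma-glutamyltransferase family, rose from 4.31 ± 0.450 to 11.2 ± 0.923 CPM (log2 fold change 1.36, adjusted p 1.48e-10). PSTK, the kinase that primes the selenocysteine transfer RNA, rose by 0.81 (7.81 to 13.6 CPM) and CTH by 0.74. SLC1A1, a glutamate and cysteine carrier, had the largest fitted rise (1.87, SE 0.55) at a mean of 0.162 CPM in siControl and 0.622 in siACLY. GSTM2 (-1.05), MAFK (-0.67), CHAC2, which also degrades glutathione (-0.56), and SLC25A39, the mitochondrial glutathione importer (-0.46), fell most. In their groups COQ10B (0.51), QDPR, which recycles tetrahydrobiopterin (0.30), and SLC7A5, the large neutral amino acid light chain that pairs with SLC3A2 (-0.29), had the largest changes.

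In siACO1 53 of the 92 were called (57.6%), 16 higher and 37 lower, with a median of -0.06 against 0.01, where 37.1% of all genes were called, 17.8% higher and 19.3% lower, and 49.7% of those at or above 7.26 CPM. With library totals 56 were called, 23 higher and 33 lower. The heavy chain partners had 1 lower of 3, cysteine handling and glutathione breakdown 2 higher and 9 lower of 17, and glutathione use and transport 6 higher and 11 lower of 26. Selenoprotein synthesis had 2 higher and 4 lower of 10, coenzyme Q 6 higher and 5 lower of 20, tetrahydrobiopterin 2 lower of 6, and the regulators 5 lower of 10. SLC7A5 fell from 1351 ± 65.8 to 823 ± 7.95 CPM (log2 fold change -0.71, adjusted p 6.27e-14). NFE2L2, which encodes NRF2, fell from 80.5 ± 1.39 to 51.6 ± 2.25 CPM (-0.64, adjusted p 2.35e-11), and 20.9% of its exon bases overlap other genes. AHCY, which produces homocysteine (-0.61), and LRP8, a receptor for selenoprotein P (-0.58), followed; LRP8 was at 47.2 and 47.3 CPM in replicates 1 and 2 and at 38.4 in replicate 3. SPR fell by 0.43 on the log2 scale. GSTM4 (0.70), COQ10A (0.68), GGT7 (0.61) and COQ10B (0.41) rose most. GSTM2 and GSTM4 belong to a family of similar transcripts, so their counts may be split between copies.

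**Figure D4:**
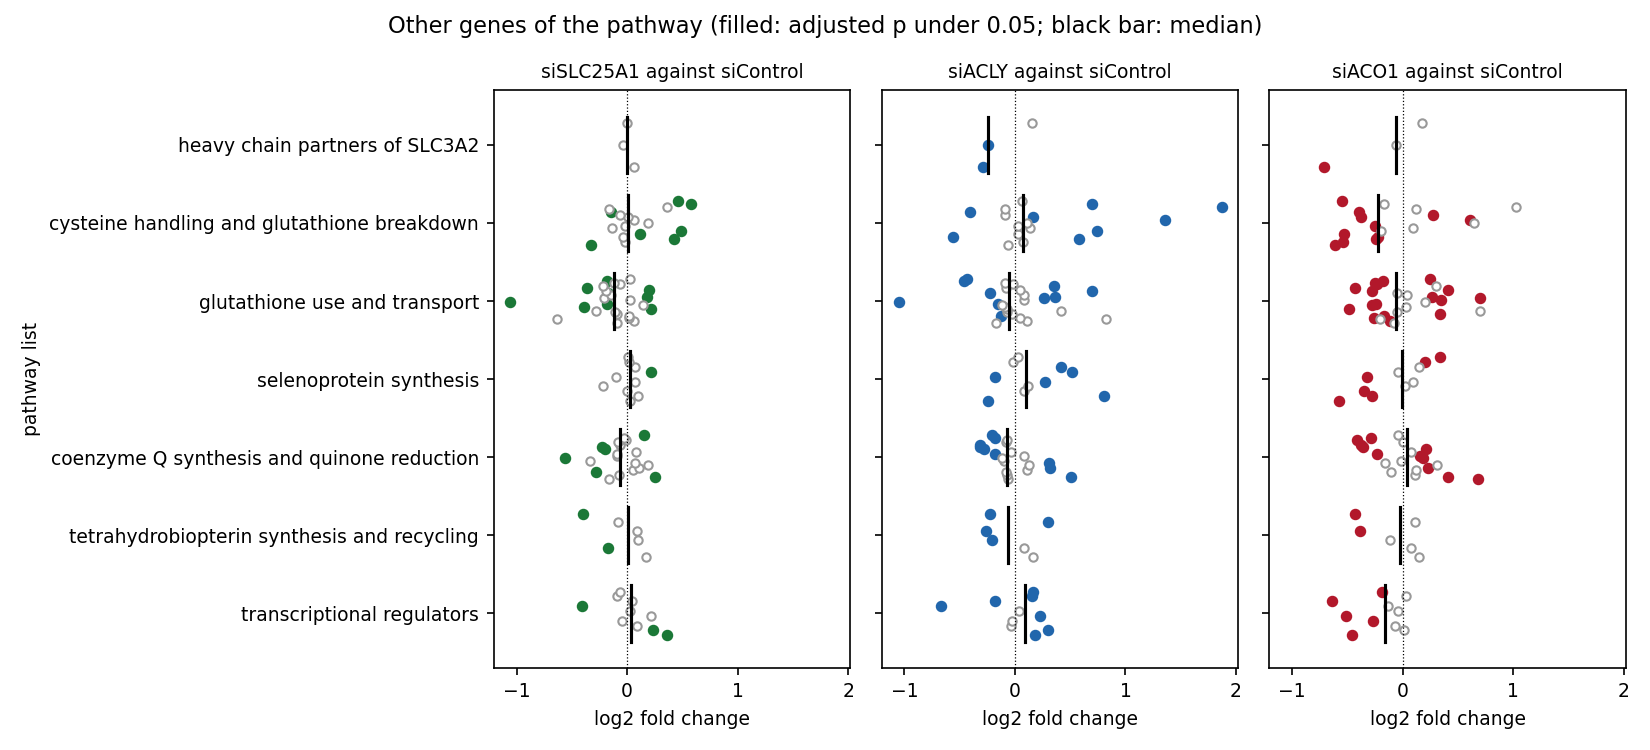
Log2 fold change against siControl (x axis) of the 92 tested pathway genes (points) by list (rows) and knockdown (panels); filled points passed an adjusted p under 0.05 and black bars are list medians. The cysteine handling list has its median at 0.01 in siSLC25A1, 0.07 in siACLY and -0.22 in siACO1.

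Some pathway genes took different directions between knockdowns, as SLC7A11 did. TXNRD1 rose in siSLC25A1, was at 0.06 in siACLY (adjusted p 0.250) and fell by 0.55 on the log2 scale in siACO1, and siSLC25A1 and siACO1 differed by 1.01 (adjusted p 1.66e-18). CHAC1 rose by 0.42 in siSLC25A1 and 0.58 in siACLY and fell by 0.24 in siACO1 (adjusted p 0.00435). ATF4, a transcription factor of the amino acid response that acts on SLC7A11, was named after its values were seen. It was at 344 CPM in siControl, 442 in siSLC25A1 (log2 fold change 0.36, adjusted p 1.35e-06), 390 in siACLY (0.18) and 251 in siACO1 (-0.46, adjusted p 7.76e-09). Of its 31-base stretches, 29.7% also occur in other genes. NFE2L2, from the same list of regulators, was at 0.04 in siSLC25A1 (adjusted p 0.634), -0.18 in siACLY (adjusted p 0.00383) and -0.64 in siACO1. A link of either regulator to SLC7A11 was not tested.

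For the 3 members with the widest range of group means, the tested genes with the most similar levels over the 12 libraries were sought. The correlations describe libraries that share 4 group means, and no test was made. GCH1 was matched most closely by CAMK1G (Pearson's r 0.982) and SEC61A2 (0.975). CAMK1G was at 3.05 CPM in siControl, 5.46 in siSLC25A1, 13.4 in siACLY and 14.8 in siACO1. SLC7A11 was matched by ASAP1 (0.986), SPIRE1 (0.983) and HK2 (0.977), and HK2 was at 169, 230, 174 and 113 CPM in the same order of groups. SLC3A2 was matched by CSNK1E (0.984), HYAL2 (0.979) and ERFE (0.977).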

How the data were processed

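The authors deposited 1 table of raw counts per gene, whole numbers that were not normalized, 1 column to a library, per the file headers. The submitters' processing notes name Trim Galore, STAR 2.7.0e and DESeq2 and the builds GRCh38 and GRCm39, without saying what each was used for. The counting tool, annotation release and strand setting are not given in the sources used here. Symbols came from a table of gene names that matched 62700 of 70116 identifiers. Exon lengths, merged over all annotated transcripts of a gene, and overlaps were taken from GENCODE release 29. The levels per kilobase and the partner ratios depend on these lengths. The authors may have counted against another annotation.

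Counts were filtered with filterByExpr, scaled by TMM and fitted in edgeR 4.0.16 (robust quasi-likelihood, 12 libraries in 4 groups, 8 residual degrees of freedom, biological coefficient of variation 4.89%). The SE is the log2 fold change divided by the square root of F. Pathway genes named are the 4 largest called rises and falls per knockdown with no overlap with the controls, and the largest called change of each list. The members and lists were chosen with earlier results of these data known. The alternatives used size factors from median ratios, library totals, DESeq2 1.42.0, no filter, at least 10 counts in every library, the 2 groups only, a replicate block and each library left out. Only the edgeR fit was run on simulated counts, for the comparison of siACO1 with siControl. A gene was called uncertain if other genes share 20% or more of its exon bases or 31-base stretches, which applied to 0 of the 9 members. Of the pathway lists it applied to SLC7A6, CBS, MFSD12, GGT1, GGCT, GPX1, COQ6, GCHFR, NFE2L2 and ATF4, which were kept in the lists.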

Additional observations from a re-analysis of the deposited data

How the results depend on the processing

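Of the 9 members in 6 comparisons, no call changed direction under the alternatives tried. With library totals in place of TMM 8 members were called in siACO1 against 5, since GSS (log2 fold change 0.10), GPX4 (0.12) and AIFM2 (0.15) passed the threshold; this scaling moved the median of all genes in siACO1 from 0.006 to 0.055 and the share of higher genes among all calls from 47.9% to 59.5% (50.1% to 61.0% in siACLY, 51.8% to 41.0% between siSLC25A1 and siACLY, 51.8% to 42.2% between siSLC25A1 and siACO1). Leaving out 1 library at a time gave 3 to 5 called members in siSLC25A1, with 3 without siControl replicate 1 or 3 or siSLC25A1 replicate 2 or 3, 6 to 7 in siACLY and 5 in siACO1. It gave 5 to 6 between siSLC25A1 and siACLY, 6 to 7 between siSLC25A1 and siACO1 and 6 between siACLY and siACO1. Called pathway genes were then 21 to 26 in siSLC25A1, 41 to 44 in siACLY and 46 to 54 in siACO1, and 42 to 48, 56 to 60 and 51 to 60 between knockdowns in the same order.

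With the replicate number as a block, 6 members were called in siSLC25A1 against 5, and the counts of the other 5 comparisons were 8, 5, 6, 7 and 6, as without it. The correlation of deviations between libraries with the same number ran from -0.054 to 0.108. The labels do not say what a shared number means, and these correlations cannot show whether such libraries shared a culture or batch. No pairing was used. Counting depth limits GCH1 most, with 115 counts in its lowest library.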
